A study of Penicillium citrinum with 6 samples.

Results

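The genes described here are the hydrophobin genes of *Penicillium citrinum*, which the deposited tables number PCI_0227, PCI_2115, PCI_2310, PCI_8314 and PCI_9301. They are the 5 genes, of 9385 listed, whose product name is hydrophobin. They were chosen by this name together with their FPKM in all 3 groups of samples, so their levels and changes are given as a description and without a test. The study sequenced total RNA of wild-type mycelium in 6 libraries, 2 per group. CK2D stands for growth on plates of Czapek-Dox, a defined medium, sampled at day 2. TL2D and TL3D stand for growth on tobacco leaves, called flured in the labels, sampled at days 2 and 3. All 6 libraries carry the code CY-H4, and the fungus was started from conidia and kept at 25 °C in every group. The titles hold the codes alone, and they were tied to plate and leaf through the sampling days, because day 3 was sampled on leaves only. TL3D and CK2D thus differ in both day and surface, which cannot be told apart, and the plate level is that of day 2 throughout. Nothing in the labels says that the replicates of a group were separate cultures, so their spread may be technical.

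Hydrophobins are small secreted fungal proteins with a conserved pattern of cysteines joined by disulfide bonds. At a boundary between water and air, or on a solid surface, they assemble into a film with a water-repellent side. In *Aspergillus*, a genus close to *Penicillium*, hydrophobins of the RodA type form the rodlet layer that makes dry conidia water-repellent. Other hydrophobins coat aerial hyphae. In the rice blast fungus *Magnaporthe oryzae* the hydrophobin MPG1 is used in attachment to the leaf, and in *Aspergillus oryzae* the hydrophobin RolA binds a cutinase, an enzyme that cleaves the waxy polyester of the plant surface. The tables do not say which of these the genes of *P. citrinum* correspond to.

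Each library has an FPKM value per gene, a fragment count adjusted for transcript length and sequencing depth. The libraries totalled from 582600 to 614206 FPKM, their median gene had between 16.8 and 19.6 FPKM, and the number of reads is unknown. The TL2D replicates lay further apart than those of the other groups. Their median absolute difference over genes was 0.176 on the log2(FPKM + 1) scale, against 0.111 in CK2D and 0.116 in TL3D. Because FPKM are shares of a library, a lower value cannot tell fewer cells of a kind (spore-bearing hyphae, for example) from less RNA per cell.

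On plates 1 hydrophobin gene far outweighed the rest. PCI_0227 had 17134 FPKM in CK2D replicate 1 and 16188 in replicate 2, and by its mean of 16661 ± 669 (SD, n = 2) it was the most abundant of all 9385 genes there. PCI_2310 followed with 2146 and 2034 FPKM, and it ranked 20 among all genes in each of the plate libraries. PCI_2115 had 404 and 314 FPKM, and PCI_8314 had 164 and 156. PCI_9301 had 2.26 and 1.98 FPKM, below the median gene of its library. The ranges of neighbours in this order did not overlap. The gene PCI_0227 stood 7.97 times above PCI_2310, and PCI_8314 stood 75.5 times above PCI_9301.

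The genes took 3 courses over the groups. PCI_0227, PCI_2310 and PCI_8314 were lowest on leaves at day 2, PCI_2115 was highest there, and PCI_9301 was near the floor on plates and high on leaves at both days.

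**Figure D1:**
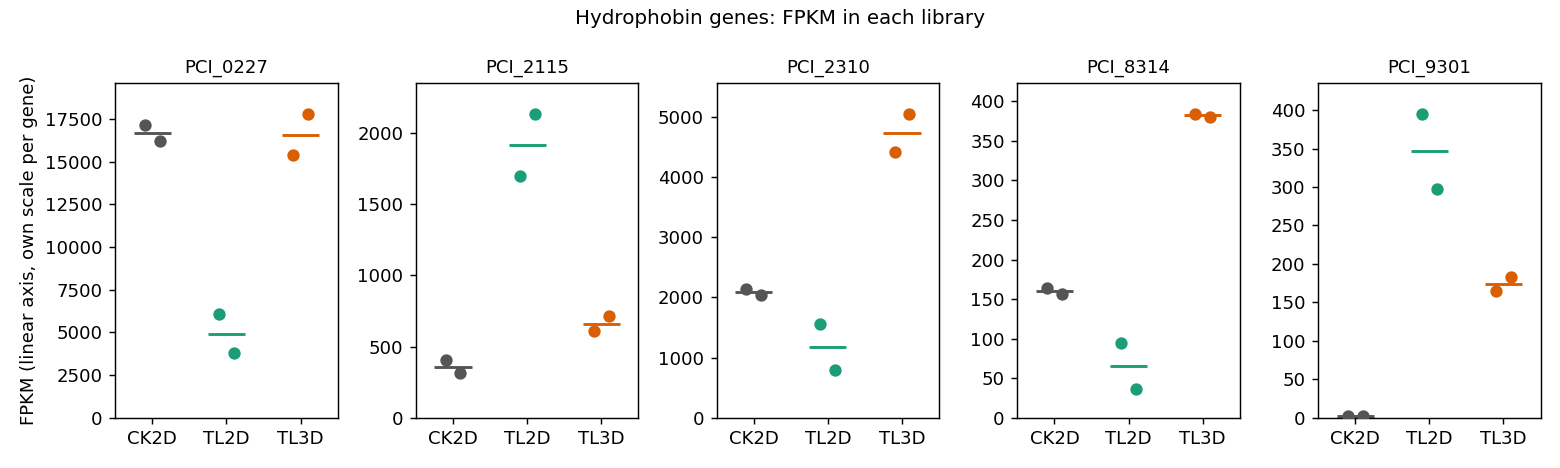
FPKM of each hydrophobin gene (vertical axis, linear, own scale per gene) in the libraries of plates at day 2 (CK2D), leaves at day 2 (TL2D) and leaves at day 3 (TL3D). Points are single libraries, replicate 1 to the left, and bars are group means (n = 2). PCI_0227, PCI_2310 and PCI_8314 dip in TL2D, while PCI_2115 and PCI_9301 peak there.

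PCI_0227 was lower on leaves at day 2 than on plates, and on leaves at day 3 it stood at the plate level. It had 6085 and 3764 FPKM in the TL2D replicates, both below the plate libraries, and 15365 and 17804 in the TL3D replicates, which enclose the plate values. The mean in TL2D was 3.38 times lower than in CK2D, with a fitted log2 change of −1.80 ± 0.28 (SE). From TL2D to TL3D the mean was 3.37 times higher (log2 1.79 ± 0.26). TL3D against CK2D gave a ratio of 0.995 (log2 −0.01 ± 0.11), and the groups overlapped. Even at its lowest the gene stayed among the most abundant transcripts, with rank 2 and rank 4 in the TL2D libraries and rank 2 and rank 1 in the TL3D libraries.

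PCI_2310 dipped less in TL2D and was above its plate level in TL3D. It had 1555 and 797 FPKM in TL2D, against 2146 and 2034 on plates. In TL3D it had 4426 and 5054 FPKM. All libraries of TL3D lay above all plate libraries, and those lay above both TL2D libraries. The mean was 1.78 times lower in TL2D than in CK2D (log2 −0.91 ± 0.34), and the TL2D replicates themselves differed 1.95-fold, which is more than that step. It was 4.03 times higher in TL3D than in TL2D (log2 2.09 ± 0.33) and 2.27 times higher in TL3D than in CK2D (log2 1.18 ± 0.10). Its rank rose from 20 on plates to 8 and 6 in the TL3D libraries.

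PCI_8314 had the same course at a lower level. Its values were 164 and 156 FPKM on plates, 94.9 and 36.0 in TL2D and 384 and 380 in TL3D, with no overlap between any of the groups. The mean was 2.45 times lower in TL2D than in CK2D (log2 −1.44 ± 0.46), or 4.45 times lower without TL2D replicate 1. It was 5.84 times higher in TL3D than in TL2D (log2 2.69 ± 0.45), or 10.6 times without TL2D replicate 1. The TL2D replicates differed 2.64-fold, and the TL3D replicates 1.01-fold. TL3D stood 2.39 times above CK2D (log2 1.25 ± 0.08), close to the 2.27 times of PCI_2310.

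PCI_2115 went the other way at day 2. It had 404 and 314 FPKM on plates, 1702 and 2137 in TL2D and 607 and 713 in TL3D, and the 3 groups did not overlap. The mean was 5.34 times higher in TL2D than in CK2D (log2 2.42 ± 0.19), 2.91 times lower in TL3D than in TL2D (log2 −1.53 ± 0.16), and still 1.84 times higher in TL3D than in CK2D (log2 0.88 ± 0.14). The gene had rank 231 and 300 in the plate libraries and rank 22 and 19 on leaves at day 2. Of 8222 tested genes, 0.170% had a lower fitted change from TL2D to TL3D than this gene. Its place was less extreme in the other comparisons. A larger change was held by 2.24% of tested genes in TL2D against CK2D and by 10.5% in TL3D against CK2D.

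PCI_9301 was the hydrophobin gene with the widest range. From 2.26 and 1.98 FPKM on plates it reached 395 and 298 in TL2D, and it had 164 and 183 in TL3D. The lowest leaf value was 72.6 times the highest plate value. The fitted log2 change was 6.79 ± 0.17 from CK2D to TL2D, −0.98 ± 0.16 from TL2D to TL3D, and 5.81 ± 0.11 from CK2D to TL3D, all on log2(FPKM + 1), which understates changes from so low a plate level. The ratio of means was 163 for TL2D against CK2D and 81.9 for TL3D against CK2D, and TL3D was 2.00 times lower than TL2D. Of 8286 genes tested in TL2D against CK2D, 0.0724% had a larger fitted rise. The genes that dipped were less extreme there. A lower change than that of PCI_0227, PCI_2310 and PCI_8314 was held by 5.44%, 14.7% and 7.68% of tested genes.

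In TL2D against CK2D the libraries of the groups did not overlap in any of the 5 genes, with 2 higher and 3 lower. Of all tested genes 82.3% did not overlap, 36.6% being higher and 45.7% lower, and 54.2% had an adjusted p under 0.05 in the fit across all genes with limma. In TL3D against TL2D, 3 of the 5 were higher and 2 lower without overlap, beside 63.4% of all tested genes (29.5% higher and 33.9% lower). There limma called 10.1% of all tested genes. In TL3D against CK2D, 4 of the 5 were higher without overlap and PCI_0227 overlapped, beside 81.0% of all tested genes (37.7% higher and 43.3% lower), with 58.3% called. Any pair of these comparisons shares the libraries of a group, so they are not independent of each other. The values chose the genes, and nothing is read from these counts. Over 8407 genes that reached 1 FPKM in 2 or more libraries, 23.3% were lower in both TL2D libraries than in all 4 others, as PCI_0227, PCI_2310 and PCI_8314 were. A further 22.6% were higher in both, as PCI_2115 and PCI_9301 were. Of the 8407 genes, 3.57% were lowest in TL2D and also higher in both TL3D libraries than on plates, the course of PCI_2310 and PCI_8314. The course of PCI_2115 and PCI_9301, highest in TL2D with TL3D above the plates, was that of 16.7%. These shares rest on the values that chose the genes and were worked out after the courses had been seen.

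**Figure D2:**
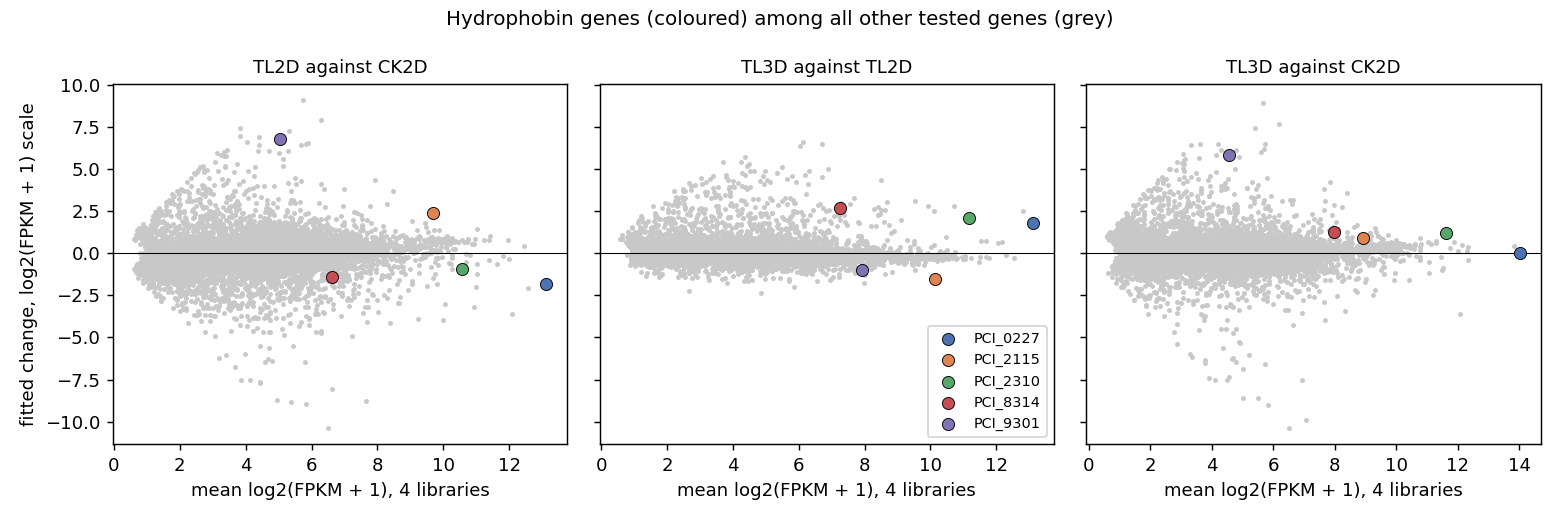
Fitted change on the log2(FPKM + 1) scale (vertical axis) against the mean log2(FPKM + 1) of the 4 libraries (horizontal axis) for the 3 pairs of groups. Grey points are all other tested genes and coloured points the 5 hydrophobin genes. PCI_0227 is at the right edge in each panel, and PCI_9301 is far above 0 in both comparisons with CK2D.

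The summed hydrophobin level was lower on leaves at day 2 than in either other group. The 5 genes together had 19850 and 18694 FPKM on plates, 9832 and 7031 in TL2D and 20947 and 24134 in TL3D, with no overlap between the groups. They held 3.31% and 3.08% of the library's FPKM on plates, 1.68% and 1.21% in TL2D and 3.48% and 3.93% in TL3D.

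The make-up of that sum also differed. PCI_0227 made up 86.3% and 86.6% of it on plates, 61.9% and 53.5% in TL2D and 73.4% and 73.8% in TL3D. PCI_2115 made up 2.04% and 1.68% on plates, 17.3% and 30.4% in TL2D and 2.90% and 2.95% in TL3D. PCI_2310 had 10.8% and 10.9%, then 15.8% and 11.3%, and then 21.1% and 20.9%. PCI_9301 held 0.0114% and 0.0106% on plates, 4.02% and 4.24% in TL2D and 0.785% and 0.757% in TL3D. PCI_8314 held between 0.512% and 1.83% in every library. In TL3D the sum was at or above the plate level, with PCI_2310 holding a larger share of it than on plates and PCI_0227 a smaller one.

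**Figure D3:**
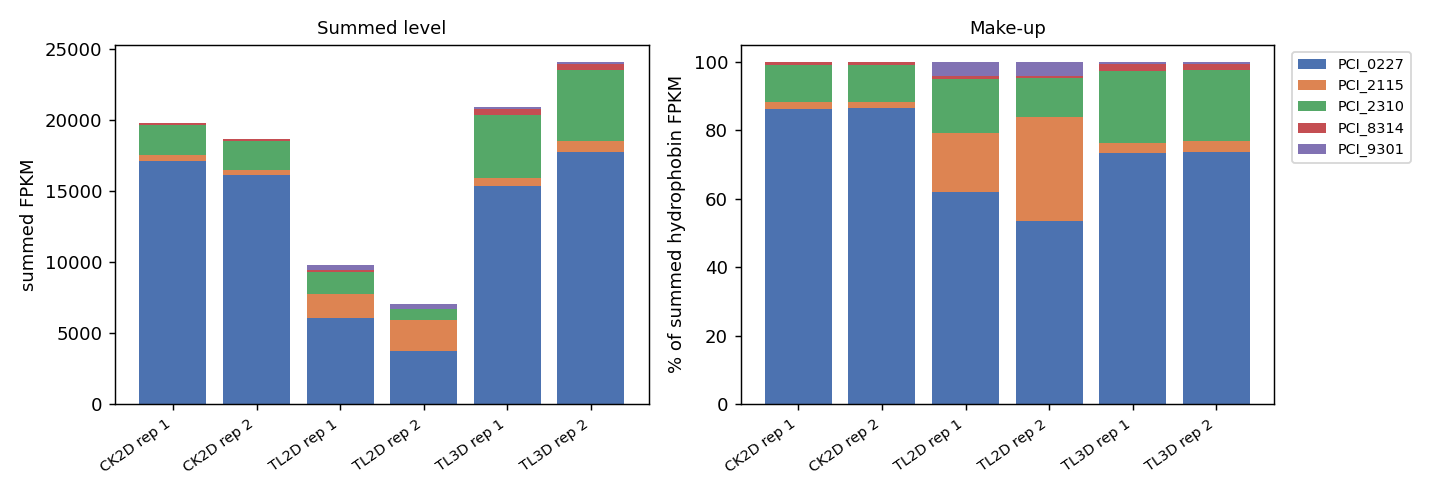
Summed FPKM of the 5 hydrophobin genes in each library (left) and the percentage of that sum held by each gene (right), with 1 bar per library. The TL2D bars are the lowest, and the PCI_2115 band is widest there.

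Ratios between genes of the same library do not depend on how the library was scaled. PCI_0227 over PCI_2310 was 7.99 and 7.96 on plates, 3.91 and 4.73 in TL2D and 3.47 and 3.52 in TL3D. It was lower in every leaf library of both days than in either plate library. PCI_2310 over PCI_8314 was 13.1 and 13.0 on plates and 11.5 and 13.3 in TL3D, with 16.4 and 22.1 in TL2D. PCI_2115 over PCI_2310 was 0.188 and 0.155 on plates, 1.09 and 2.68 in TL2D and 0.137 and 0.141 in TL3D. The order of the 2 genes was thus turned around in TL2D. In the TL2D libraries PCI_9301 also stood above PCI_8314, by 4.16 and 8.27 times, and in all others below it. PCI_0227 was the highest hydrophobin gene in all 6 libraries. The neighbours in the order of levels did not overlap in any group, although PCI_2115 and PCI_2310 differed only 1.09-fold within TL2D replicate 1.

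The TL2D replicates differed most in the 3 genes that dipped. TL2D replicate 2 was lower than replicate 1 by 1.62 times in PCI_0227, 1.95 times in PCI_2310 and 2.64 times in PCI_8314. On the log2(FPKM + 1) scale, 8.25%, 4.11% and 1.74% of the 7854 genes with at least 1 FPKM in both libraries differed more than these genes did. PCI_2115 was higher in replicate 2, with 2137 against 1702 FPKM. In these 4 genes replicate 2 lay further from the plate level than replicate 1, and in PCI_9301 it lay nearer, with 298 against 395 FPKM. Of all 8407 genes that reached 1 FPKM in 2 or more libraries, 60.3% were lower in TL2D replicate 2 than in replicate 1. Of 20 conidiation genes, described below, 13 were lower there, as were 6 of 9 pigment genes. The part of this library difference in the dip was not tested. In either TL2D replicate alone the 3 genes were below both plate libraries and both TL3D libraries, which only restates their course.

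The likeness of 2 courses was measured as the root mean square difference of their mean-centred log2(FPKM + 1) values over the 6 libraries, so that 0 is the same course. Among the hydrophobin genes PCI_2310 and PCI_8314 were the most alike, at 0.298. PCI_8314 was rank 16 among the 8406 other genes in likeness to PCI_2310. PCI_0227 lay 0.511 from PCI_2310 and 0.569 from PCI_8314, and all other pairs lay between 1.69 and 3.58.

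The named genes closest to PCI_0227 were the spore regulator gene vosA (PCI_8689), at 0.0991, a membrane protein gene (PCI_3674), at 0.114, and a 30 kDa heat shock protein gene (PCI_0663), at 0.114. In *Aspergillus nidulans* VosA governs the maturation of spores, and the gene also stands in the conidiation list below. The vosA gene had 58.1 and 55.1 FPKM on plates, 17.5 and 11.2 in TL2D and 50.1 and 50.0 in TL3D. Another 3 genes with no product name were closer than vosA.

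PCI_2310 was closest to a sterol 3-beta-glucosyltransferase gene (PCI_2756), at 0.0554, then to a multidrug transporter gene (PCI_4082), at 0.208, and an esterase or lipase gene (PCI_4631), at 0.219. PCI_8314 was closest to a sodium and proton antiporter gene (PCI_8346), at 0.165, a glyoxalase 3 gene (PCI_3668), at 0.186, and a quinone oxidoreductase gene (PCI_7450), at 0.187. Several of these are low, and PCI_2756 had only 1.54 and 0.395 FPKM in TL2D.

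PCI_2115 was closest to a peptide synthetase gene annotated FUB8 (PCI_8142), at 0.155, followed by a gene for the membrane protein PTH11 (PCI_5819), at 0.202, and one for an indoleamine 2,3-dioxygenase (PCI_1943), at 0.227. PCI_8142 is a low gene, with 0.194 and 0.131 FPKM on plates, 3.61 and 5.73 in TL2D and 1.14 and 0.991 in TL3D. At such levels the 1 added to each FPKM shrinks the changes, so its likeness to PCI_2115 holds only on the log2(FPKM + 1) scale. PTH11 is known from *Magnaporthe oryzae* as a receptor used in sensing the leaf surface. PCI_5819 had 16.0 and 13.0 FPKM on plates, 103 and 81.8 in TL2D and 26.2 and 31.3 in TL3D. PCI_9301 was closest to a choline dehydrogenase gene (PCI_3482), at 0.256, a polygalacturonase gene (PCI_2378), at 0.283, and an arabinofuranosidase gene (PCI_7050), at 0.316. The latter pair encode enzymes that act on pectin and on arabinose side chains of plant cell walls.

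**Figure D4:**
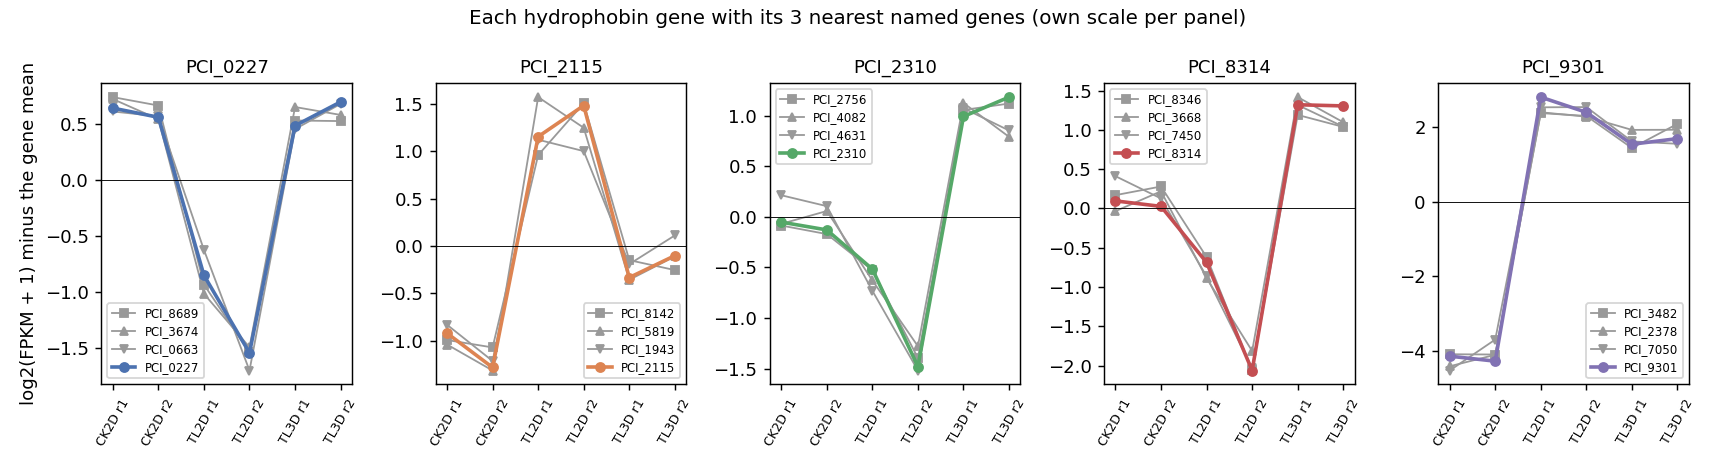
Course of each hydrophobin gene (coloured) and of its 3 closest named genes (grey) over the 6 libraries, as log2(FPKM + 1) minus the gene's own mean (vertical axis, own scale per panel). The order of panels is by gene number, and r1 and r2 are replicates. The curves of PCI_0227 and vosA (PCI_8689) nearly coincide, at a distance of 0.0991.

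The 5 hydrophobin genes do not carry neighbouring numbers. Of the 20 genes numbered within 2 of them, 19 were tested in TL2D against CK2D, and limma called 5 higher and 6 lower (adjusted p under 0.05), beside 24.8% and 29.4% of all tested genes. In TL3D against TL2D 1 of 18 was higher and 0 lower, beside 6.77% and 3.30% of all tested genes. In TL3D against CK2D 6 of 19 were higher and 7 lower, beside 28.1% and 30.2%. Some neighbours had a course like that of the hydrophobin gene beside them and others did not. PCI_2116, an acyl-CoA ligase gene next in number to PCI_2115, had 3.11 and 3.03 FPKM on plates, 10.5 and 8.95 in TL2D and 6.66 and 6.34 in TL3D, so like PCI_2115 it was highest in TL2D with TL3D between. Next to PCI_9301, the histidine kinase gene PCI_9300 had 3.06 and 1.57 FPKM on plates and 0.444 and 0.0971 in TL2D. PCI_9302, for the translation initiation factor eIF3 subunit D, had 120 and 113 FPKM on plates, 201 and 223 in TL2D and 147 and 156 in TL3D. That is the order of groups of PCI_9301 over a much narrower range. Such an order, highest in TL2D with TL3D above the plates, was held by 16.7% of 8407 genes. Gene numbers were not tied to genome positions, because 0 of them match the 11657 genes of the RefSeq table.

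Genes named for conidia or sporulation, and for the conidial pigment, were followed beside the hydrophobins as lists of product names with the hydrophobins left out. The list called conidiation genes also holds names not particular to conidia. Examples are the sexual development regulator velC, laeA and general sporulation proteins, so its counts and median do not measure conidiation alone. Over all genes, 24.8% were called higher and 29.4% lower in TL2D than in CK2D, with a median fitted log2 change of −0.10. The largest rise or fall in a list is meant on the fitted log2(FPKM + 1) scale throughout. Of 20 tested conidiation genes 6 rose and 9 fell (median −0.32), or 2 rose and 2 fell without CK2D replicate 1 and 2 rose and 3 fell without CK2D replicate 2. The largest fall was in wetA (PCI_1706), which completes spore maturation in *Aspergillus*, from 180 ± 6.71 FPKM to 26.2 ± 11.5 (log2 −2.80 ± 0.31, adjusted p = 0.00387). The largest rise was in a laeA gene (PCI_6080), a regulator of secondary metabolism, from 4.12 ± 1.44 to 16.5 ± 0.485. The genes brlA (PCI_2178) and abaA (PCI_1856), which act before wetA, were picked out after their values were seen. They fell by 1.38 and 2.33 on the log2 scale (adjusted p = 0.0102 and 0.00762). Other regulator genes of the list, also picked out afterwards, went the other way. The genes fluG (PCI_0893), flbA (PCI_0977) and veA (PCI_1579) rose by 0.57, 0.51 and 0.63 (adjusted p = 0.00940, 0.0183 and 0.0140 in limma). Another fluG gene (PCI_8696) was not called (log2 −0.42). Of 9 tested conidial pigment genes 7 fell and 1 rose (median −3.52), and 4 fell with either CK2D replicate left out. The polyketide synthase gene albA (PCI_7912), which starts the pigment, fell from 403 ± 11.7 to 18.8 ± 17.7 FPKM, and the scytalone dehydratase-like gene PCI_1167 rose from 4.54 ± 0.564 to 30.5 ± 7.51.

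From TL2D to TL3D, where 6.77% of all genes were called higher and 3.30% lower, 5 of 19 tested conidiation genes rose and 0 fell by limma (median 0.07). The largest rise was in wetA, to 143 ± 17.1 FPKM (adjusted p = 0.0222). Of the 9 pigment genes 6 rose and 0 fell (median 1.98), with ayg1 (PCI_7947) going from 23.5 ± 0.342 to 136 ± 27.1 FPKM. With either TL3D replicate left out, limma called 0 genes in this comparison, and 1074 and 1198 genes had an unadjusted p under 0.05. In TL3D against CK2D, where 28.1% of all genes were higher and 30.2% lower, 3 of 20 conidiation genes were higher and 8 lower, and 1 pigment gene was higher and 7 lower. There brlA, with 211 and 281 FPKM in TL3D against 490 and 412 on plates, was the called conidiation gene with the lowest fitted log2(FPKM + 1) change (−0.88), while by the ratio of mean FPKM the low gene PCI_2797 (0.467) and abaA (0.544) stood below brlA (0.546). PCI_2797, named for a sporulation-specific protein, was picked out after its values were seen. PCI_0227 stood at its plate level and PCI_2310 and PCI_8314 above theirs in the same libraries.

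Other genes in a list of surface and wall protein names moved both ways. The list also holds PCI_0155 (GPI-anchor transamidase) and PCI_0080 (GPI-anchored wall transfer protein 1), which are not surface proteins. Of its 21 genes 5 rose and 9, with these among them, fell in TL2D against CK2D, where 24.8% and 29.4% of all genes did. Without CK2D replicate 1 it was 2 and 4, and without CK2D replicate 2 it was 3 and 4. The largest rise was in phiA (PCI_6057), a wall protein needed for phialides in *Aspergillus nidulans*, from 76.6 ± 3.77 to 324 ± 149 FPKM, and the largest fall was in the hemophore gene cfmB (PCI_2843), from 299 ± 71.0 to 5.46 ± 0.0802. In TL3D against TL2D 4 rose and 2 fell, where 6.77% and 3.30% of all genes did. With either TL2D replicate left out more of them fell, and more genes were called over all genes too. In TL3D against CK2D 7 were higher and 10 lower, beside 28.1% and 30.2% of all genes. The gene of the hydrophobic surface binding protein A family (PCI_7378), a family whose *Aspergillus oryzae* member also binds a cutinase, had 513 and 462 FPKM on plates, 245 and 142 in TL2D and 575 and 580 in TL3D. It was picked out after its values were seen. Of 28 wall polymer genes 8 rose and 5 fell in TL2D against CK2D, or 2 and 1 with either CK2D replicate left out. Of 8 genes of disulfide formation and folding 0 rose and 2 fell by limma, and 0 fell with either CK2D replicate left out.

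Of the 10 tested genes with cutinase in their product name, 3 rose and 4 fell in TL2D against CK2D. Over all tested genes 24.8% rose and 29.4% fell. With either CK2D replicate left out fewer genes were called, in this list as over all genes. The 3 that rose are the cutinases themselves, and the others are named as regulators of cutinase genes. Cutinase 1 (PCI_0177) had 0.274 and 0.312 FPKM on plates, 50.6 and 29.4 in TL2D and 40.0 and 37.4 in TL3D. Cutinase 2 (PCI_2127) and cutinase 3 (PCI_9224) were likewise under 1 FPKM in both plate libraries and at 7.89 FPKM or more in every leaf library. Like PCI_9301, these genes were low on plates and high on both days of leaf growth. Between TL2D and TL3D limma called none of the 3, and the libraries of the days overlapped in cutinase 1, cutinase 2 and cutinase 3. The product names searched for tobacco RNA matched 7 genes and no photosystem, chlorophyll-binding or Rubisco gene. The listed genes carry the PCI_ numbers of the fungus, so the absence of such names is no check for tobacco RNA. Together the 7 had 206 and 231 FPKM on plates, where there is no leaf, so their sum does not mark tobacco RNA. Among them PCI_8630, named for a chloroplastic choline monooxygenase, had only 0.152 and 0.0716 FPKM on plates. It had 3.05 and 0.485 FPKM in TL2D and 1.28 and 1.37 in TL3D, and its origin was not tested. On leaves the sum was between 243 and 275 FPKM, and expansin-like protein 1 (PCI_7821), with 190 and 171 FPKM in TL2D against 69.5 and 70.0 on plates, made up most of it. The other 6 genes summed to 137 and 161 FPKM on plates and to between 71.4 and 84.7 on leaves. Of 6 genes tested in TL2D against CK2D 2 rose and 4 fell, or 1 and 2 with either CK2D replicate left out. PCI_7450, the quinone oxidoreductase gene close to PCI_8314, also belongs to this list.

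**Figure D5:**
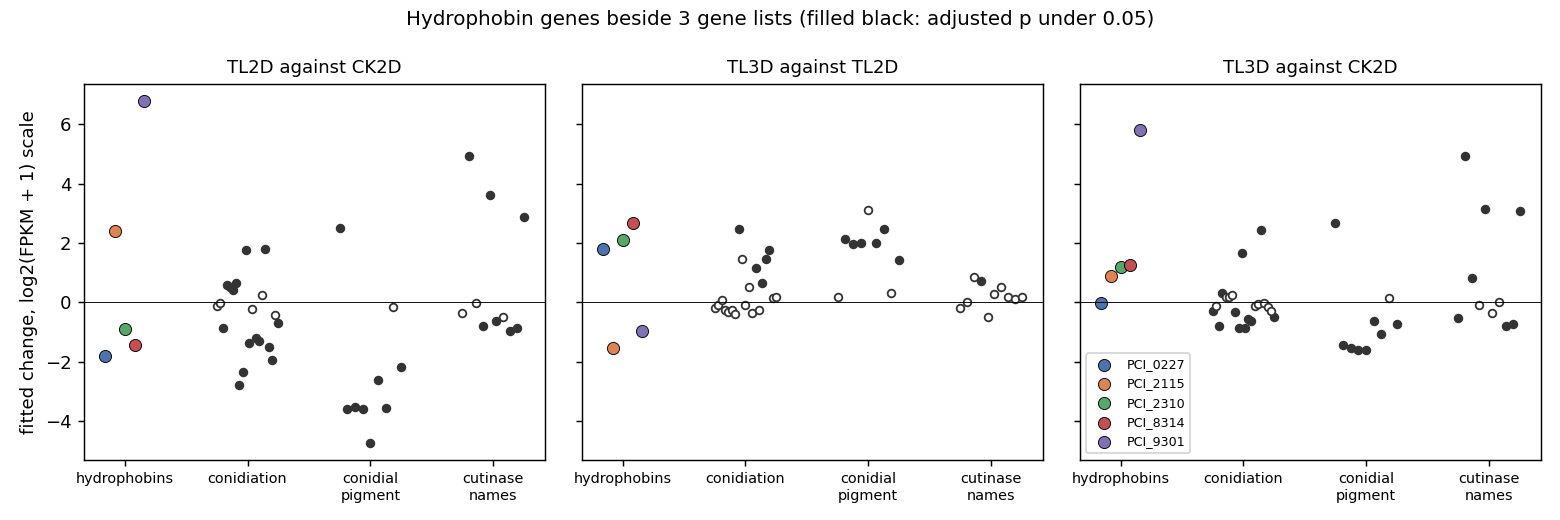
Fitted change on the log2(FPKM + 1) scale (vertical axis) of the 5 hydrophobin genes (coloured) and of the tested genes of 3 lists (black) in the 3 pairs of groups. Filled black points have an adjusted p under 0.05 in limma and open points do not. In TL2D against CK2D, 7 of 9 pigment genes are filled below 0, and PCI_0227, PCI_2310 and PCI_8314 are also below 0.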

How the data were processed

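Total RNA of 6 libraries was sequenced, 2 per group. The FPKM of each library were made by the authors, and per the submitters' processing notes Cufflinks was among the tools. Its version is not given in the sources used here, nor are aligner, build or annotation. The deposited tables also hold the authors' fold (a ratio of mean FPKM), its log2 and an FDR, which is an adjusted p-value. Recomputed log2 folds matched the deposited log2 column within 0.001 in 100% of genes. The TL2D columns were identical in both tables, so TL3D was set against CK2D across them. Low FPKM values showed no common step, so read depth is unknown and no counting interval is given.

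Each comparison used the genes that reached 1 FPKM in 2 or more of its 4 libraries, all 5 hydrophobin genes included. They were fitted on log2(FPKM + 1) with limma 3.58.1 in R 4.3.3 (eBayes with a trend, two-sided). A gene was called at a Benjamini-Hochberg adjusted p under 0.05 over all tested genes. Fitted changes of the hydrophobin genes come from the same fit, without their p-values. The procedure was tested on simulated data. Levels are mean FPKM ± SD (n = 2 libraries), and folds are ratios of mean FPKM. The p-values rest on the spread among replicates that may be technical.

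The hydrophobin genes, the 7 gene lists and the rule for genes to name were chosen with earlier results of these data known. The rule named, for each hydrophobin gene, the 3 closest genes with an informative product name and the genes numbered within 2 of it. In each list it took the gene that rose most and the gene that fell most among those called, and in each group the most abundant gene. Some of these stand only in the counts. Alternatives were each replicate left out, blocking on the replicate number, no filter on low values, a pseudocount of 0.1, 3 other scalings, 1 fit over all 6 libraries, a 2-fold limit and the authors' FDR.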

Additional observations from a re-analysis of the deposited data

How the results depend on the processing

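The fitted changes of the hydrophobin genes kept their direction under every alternative tried, apart from PCI_0227 in TL3D against CK2D. There the groups overlapped and the log2 change ran from −0.12 to 0.10 with single libraries left out. Where groups do not overlap, a left-out library or another pseudocount cannot turn the direction. The replicate block and the fit over all 6 libraries return the main change by design. The kept direction under these settings is therefore no support. With a pseudocount of 0.1, scaling to the library sum and the plain ratio of means, PCI_9301 gave log2 7.28, 7.03 and 7.35 in TL2D against CK2D and 6.29, 5.99 and 6.36 in TL3D against CK2D. PCI_8314 gave 1.30 in TL3D against CK2D after median log ratio scaling. With FPKM rescaled so that all libraries have the same sum, as in TPM, the summed hydrophobin level was 31955 in CK2D, 14438 in TL2D and 37059.5 in TL3D.

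The number of genes called was 4493, 828 and 4873 in TL2D against CK2D, TL3D against TL2D and TL3D against CK2D. With single replicates left out it ran from 1131 to 5229, from 0 to 3251 and from 3673 to 4324. In TL2D against CK2D, 1134 and 1131 genes were called without CK2D replicate 1 and 2, and the pigment genes called lower went from 7 to 4 in each case. In TL3D against TL2D, 0 were called by limma with either TL3D replicate left out (1074 and 1198 at an unadjusted p under 0.05), 3251 without TL2D replicate 1 and 2054 without TL2D replicate 2. In such fits the lone sample is assumed to vary like the other group. At least a 2-fold change left 1844, 490 and 1328 genes. In TL3D against TL2D, 1 fit over all 6 libraries called 1515 genes and the authors' deposited FDR 1842. The causes were not tested.

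The replicate numbers share no stated origin, and the replicate differences of the pairs of groups correlated at −0.08, 0.18 and −0.25. With the number as a block, 3568, 739 and 4368 genes were called. The crossed pairing of TL3D and CK2D, added after the data were seen, called 5372 genes. On recomputing, 391 list counts stayed within 1.5 times and 71 did not, most of them with a replicate left out.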
